A study of Mus musculus with 9 samples.

Results

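The Toll-like receptors examined here were Tlr1, Tlr2, Tlr4 and Tlr6, together with the co-receptors Cd14 and Ly96, the adaptors Myd88 and Ticam1, which encodes TRIF, and the kinases Irak1 and Irak2. These 10 genes, chosen by name, were read from 47643 genes in a table of raw read counts from mouse bone marrow-derived mast cells (BMMCs), and the question was whether the receptors and adaptors themselves changed. When luteolin-treated stimulated cells were compared with stimulated cells, Tlr4 mRNA was 1.88-fold lower, and Cd14, Tlr2, Irak1, Irak2 and Ticam1 were lower by 1.15- to 1.36-fold. Ly96, Tlr6 and Myd88 were higher by 1.66-, 1.81- and 1.30-fold, and Tlr1 did not pass the test. Of all tested genes, 21.9% were lower and 18.1% higher in this comparison. The calls of Tlr6, Ticam1 and Irak1 were lost in some fits that left out 1 replicate. Only Tlr4 and Ly96 passed when all 9 libraries shared one fit. Against untreated cells, none of the 10 genes passed edgeR's quasi-likelihood test in either treated group. That test called 2.25% of all genes higher and 1.02% lower with stimulation alone, and 0.285% higher and 2.75% lower with luteolin. DESeq2 called 1 of the 10 with stimulation alone and 3 with luteolin, where it called 10.6% and 11.9% of all genes. The outcome turned on which untreated libraries were used.

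Toll-like receptors are membrane proteins that recognise conserved microbial molecules. TLR2 pairs with TLR1 or TLR6 to bind bacterial lipopeptides, whereas TLR4 binds lipopolysaccharide with MD-2, the product of Ly96, after CD14 has delivered it. Through their cytoplasmic TIR domains the receptors recruit MyD88, which assembles IRAK kinases and TRAF6 and leads to NF-κB and MAP kinase signalling, and TLR4 can also recruit TRIF. Mast cells carry several of these receptors and release cytokines when they are engaged, apart from their response to antigen through IgE.

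The cells were expanded from marrow of C57BL/6 mice with conditioned medium of WEHI-3 cells (30% of the medium) and serum (20%), and RNA was sequenced in 9 libraries. The groups held 3 libraries each, namely untreated cells (Control), cells given DNP-IgE with the antigen DNP-BSA (IgE+BSA), and cells given this stimulation together with luteolin, a plant flavonoid (IgE+BSA+Luteolin). The labels give 10 μM luteolin for 24 h. The study describes luteolin in the sequenced cells as a pretreatment in one place and as given after antigen in another, so its timing is unclear. The labels do not say whether Control cells were sensitized with IgE or whether the replicates came from separate mice or cultures, so the tests measure the spread between these libraries, which may be technical. No Toll-like receptor ligand is named in any group.

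Libraries held 9515004 to 24605689 counted reads, and 3 counts corresponded to 0.122 to 0.315 CPM, the unit of counts scaled to library size, the shallowest being Control replicate 2. Kit, Ms4a2 and the other mast cell markers were present in every library, and lymphocyte markers summed to at most 1.26 CPM. Of 10 macrophage and monocyte markers, 5 passed the filter on low counts, with Adgre1 at 2095 to 6403, Ly6c2 at 281 to 718 and Csf1r at 49 to 212 counts a library, whereas C1qa, C1qb and C1qc had at most 11. This list summed to 240 to 248 CPM in Control, 263 to 287 CPM in IgE+BSA and 272 to 302 CPM in IgE+BSA+Luteolin. The Control libraries were unlike each other. The 10 markers of neutrophils and their precursors summed to 357 CPM in Control replicate 1 but to 58.3 and 47.8 CPM in Control replicates 2 and 3, against 254 to 274 CPM in IgE+BSA and 286 to 327 CPM in IgE+BSA+Luteolin. The neutrophil granule genes Ltf and Camp had 414 and 137 counts in Control replicate 1 and at most 1 count in Control replicates 2 and 3. The mast cell markers went both ways. Mcpt4, Cma1, Cpa3, Tpsb2, Fcer1a and Hdc were higher in Control replicate 1 than in replicates 2 and 3 (Mcpt4 at 1752 against 201 and 197 CPM), whereas Kit (1749 against 2306 and 2481 CPM), Ms4a2, Tpsab1 and Gata2 were lower, and the sum was 83765 against 55048 and 55273 CPM. Among basophil markers, Mcpt8 stood at 432 CPM in replicate 1 and at 21.8 and 18.7 CPM in replicates 2 and 3, Cd200r3 went the other way (688 against 1045 and 1023 CPM), and Prss34 differed less (759 against 650 and 611 CPM). The eosinophil granule gene Prg2 had 648 counts in replicate 1 and 1 and 0 in replicates 2 and 3, and Epx had 35, 0 and 0, whereas Siglecf went the other way (4.14 against 12.9 and 10.1 CPM). The main counts of genes called against Control are therefore given with and without replicate 1. The nearest-gene ranking and the fit of all 9 libraries use all 3 Control libraries. In bulk RNA, fewer cells of a type and less RNA per cell cannot be told apart.

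Among the 10 genes, transcript levels per length spanned a wide range. In CPM per kilobase of exon, Tlr2 (35.4 ± 0.0338, SD, n = 3) and Irak1 (33.9 ± 2.80) were highest in IgE+BSA and did not differ beyond their spread. They were followed by Myd88 (18.0 ± 0.738), Irak2 (12.8 ± 1.07), Cd14 (11.8 ± 0.297) and Tlr4 (9.39 ± 0.730), of which the libraries of Irak2 and Cd14 overlapped. Ly96 (5.63 ± 0.679) and Ticam1 (5.52 ± 0.683) were not separable. Tlr1 (0.742 ± 0.224) and Tlr6 (0.336 ± 0.0926), the partners of TLR2, were lowest on this scale in all 3 groups. The genes at positions 5 to 7 changed order with luteolin, where Ly96 (9.35 ± 0.391) and Cd14 (8.65 ± 0.678) overlapped each other and stood above Tlr4 (4.97 ± 0.0746).

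**Figure D1:**
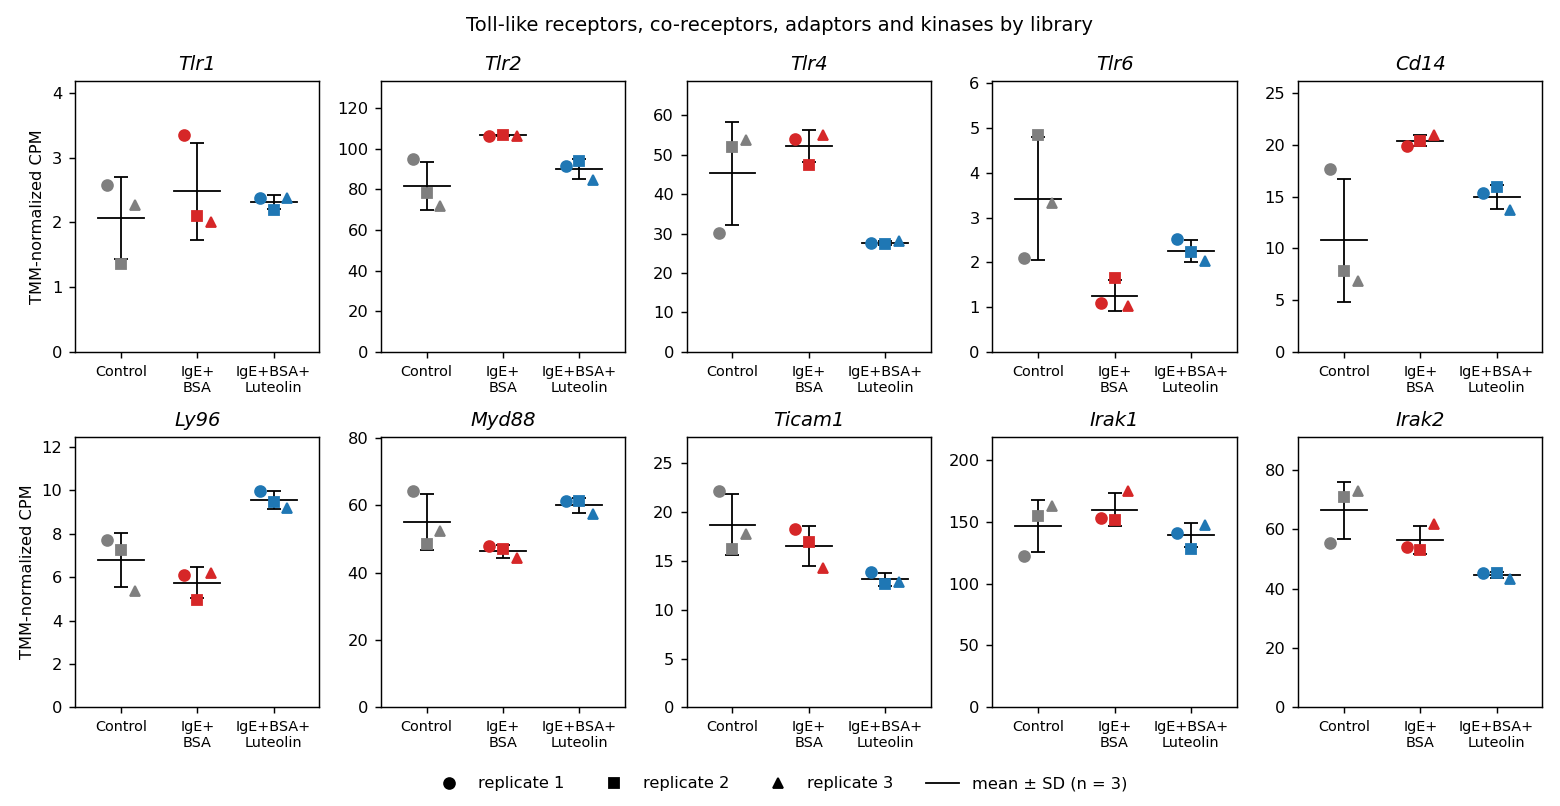
TMM-normalized CPM (y axes, each from 0) of the 10 genes in Control, IgE+BSA and IgE+BSA+Luteolin libraries. Symbols mark replicates 1 to 3, and lines give the mean ± SD (n = 3). Control replicate 1 lay apart from the other Control libraries for Tlr4 (30.1 against 51.9 and 53.8 CPM) and Cd14 (17.6 against 7.85 and 6.84 CPM), and the 3 IgE+BSA+Luteolin libraries of Tlr4 lay below all others.

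Tlr4, on chromosome 4 (66827584 to 66930284, plus strand, GRCm38), encodes the lipopolysaccharide receptor. Its level, in CPM scaled by the trimmed mean of M values (TMM), was 54.0, 47.5 and 55.0 in the IgE+BSA libraries and 27.5, 27.3 and 28.1 in the IgE+BSA+Luteolin libraries. All luteolin libraries lay below all IgE+BSA libraries. The log2 difference was −0.91 (standard error (SE) 0.08; edgeR quasi-likelihood adjusted p = 6.72e-08, adjusted over the 11560 genes tested). In Control, Tlr4 was 30.1 CPM in replicate 1 and 51.9 and 53.8 CPM in replicates 2 and 3, so replicate 1 was near the luteolin libraries and the other 2 near the IgE+BSA libraries.

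Cd14 encodes the co-receptor that hands lipopolysaccharide to TLR4. It measured 19.9, 20.4 and 20.9 CPM in IgE+BSA and 15.3, 15.9 and 13.7 CPM in IgE+BSA+Luteolin. The groups did not overlap, and the log2 difference was −0.44 (SE 0.10; edgeR adjusted p = 0.0023). The study drew its pathway results from these same libraries, so the direction of Cd14, like that of the other members, is not independent evidence. The Control libraries held 17.6, 7.85 and 6.84 CPM of Cd14, with replicate 1 above both others and below every IgE+BSA library.

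Ly96, on chromosome 1 (16688051 to 16709611, plus strand, GRCm38), encodes MD-2, the part of the receptor complex that holds the lipid portion of lipopolysaccharide. In contrast to Tlr4 and Cd14, it rose with luteolin, from 6.10, 4.95 and 6.19 CPM in IgE+BSA to 9.97, 9.47 and 9.18 CPM. The log2 difference was 0.73 (SE 0.15; edgeR adjusted p = 0.00101). Control libraries held 7.69, 7.26 and 5.36 CPM, so every luteolin library was above every other library for this gene. Thus, the 3 genes of the lipopolysaccharide receptor complex did not move in one direction.

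Tlr2, on chromosome 3 (83836272 to 83841767, minus strand, GRCm38), measured 106.5, 106.7 and 106.5 CPM in IgE+BSA and 91.3, 93.9 and 84.6 CPM in IgE+BSA+Luteolin. The IgE+BSA libraries were nearly identical and all above the luteolin libraries. At 2134 to 2356 counts a library, counting noise alone would spread them more, so this closeness does not measure precision. The difference between the groups was small, with a log2 value of −0.24 (SE 0.06; edgeR adjusted p = 0.00404). In Control, Tlr2 was 94.9, 78.4 and 72.0 CPM, below every IgE+BSA library.

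The partner genes of Tlr2 lie close together on chromosome 5 (Tlr1 at 64924679 to 64933563 and Tlr6 at 64952031 to 64960097, minus strand, GRCm38). They were measured less precisely, since Tlr6 had 78 counts and Tlr1 157 counts summed over the IgE+BSA libraries. Tlr6 was 1.08, 1.65 and 1.02 CPM in IgE+BSA and 2.52, 2.23 and 2.03 CPM in IgE+BSA+Luteolin, without overlap. Its log2 difference of 0.85 (SE 0.31; edgeR adjusted p = 0.0353) lost the call when IgE+BSA replicate 1 or 3, or luteolin replicate 1 or 2, was left out, with adjusted p up to 0.122. Control libraries held 2.09, 4.84 and 3.34 CPM, all above IgE+BSA, and replicate 1 lay within the luteolin range. Tlr1 was 3.35, 2.10 and 2.0 CPM in IgE+BSA and 2.38, 2.19 and 2.37 CPM in IgE+BSA+Luteolin, and the groups overlapped. Its log2 difference was −0.11 with a 95% interval from −0.69 to 0.48, so changes of up to about that size in either direction could not be detected, and the sign turned with library size alone (0.01) or without IgE+BSA replicate 1 (0.17). Tlr1 and Tlr6 shared 13.6% and 12.3% of their 50-base stretches with each other, and how reads matching both were counted is not stated, which leaves their split uncertain.

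Myd88, on chromosome 9 (119335934 to 119341411, minus strand, GRCm38), encodes the adaptor used by most Toll-like receptors and by the receptors for IL-1, IL-18 and IL-33. It rose with luteolin from 47.9, 47.0 and 44.3 CPM in IgE+BSA to 61.4, 61.3 and 57.5 CPM, with no overlap. The log2 difference was 0.37 (SE 0.07; edgeR adjusted p = 0.000366). Control libraries held 64.4, 48.6 and 52.3 CPM, all above IgE+BSA, and replicate 1 alone was above the luteolin range. Myd88 shared 290 bases of exon, or 11.3%, with the opposite-strand gene Acaa1a, and the strand setting of the counting is not stated.

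Ticam1, on chromosome 17 (56269319 to 56276786, minus strand, GRCm38), encodes TRIF, the adaptor of TLR3 and of the MyD88-independent branch of TLR4. It was 18.3, 16.9 and 14.3 CPM in IgE+BSA and 13.9, 12.6 and 12.8 CPM in IgE+BSA+Luteolin, and the lowest IgE+BSA library was close to the highest luteolin library. The log2 difference was −0.33 (SE 0.12; edgeR adjusted p = 0.0314), and leaving out IgE+BSA replicate 1 or 2, or luteolin replicate 2 or 3, ended the call, with adjusted p up to 0.166. Control libraries held 22.2, 16.2 and 17.7 CPM, all above the luteolin libraries.

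Irak2, on chromosome 6 (113638467 to 113695026, plus strand, GRCm38), and Irak1, on chromosome X (74013914 to 74023918, minus strand), encode kinases of the complex that forms on MyD88. Irak2 was 54.1, 53.0 and 61.7 CPM in IgE+BSA and 45.1, 45.3 and 43.3 CPM in IgE+BSA+Luteolin, a log2 difference of −0.33 (SE 0.07; edgeR adjusted p = 0.00197) without overlap. Its Control libraries, at 55.3, 70.7 and 72.9 CPM, were also all above the luteolin libraries. Irak1 was 152.9, 151.2 and 174.9 CPM in IgE+BSA and 140.9, 128.3 and 147.6 CPM in IgE+BSA+Luteolin. Although these groups did not overlap, the log2 difference of −0.20 (SE 0.07; edgeR adjusted p = 0.0296) was not called without IgE+BSA replicate 3, luteolin replicate 1 or luteolin replicate 2, with adjusted p up to 0.161. Irak1 in Control was 122.6, 154.3 and 162.4 CPM, a range that covered the whole luteolin group.

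Altogether, 6 of the 10 genes were lower and 3 higher with luteolin than in IgE+BSA, against 21.9% of all tested genes lower and 18.1% higher in the same comparison. The calls of Tlr2, Tlr4, Cd14, Ly96, Myd88 and Irak2 held in each of 6 fits that left out 1 replicate. The median log2 difference of the 10 genes was −0.22, beside 0.02 for all tested genes. With library size alone as the scaling, which moved the median of all genes to 0.13, 3 genes were lower and 3 higher, since Tlr2, Ticam1 and Irak1 lost their calls, and 15.3% of all genes were lower and 33.4% higher. With upper-quartile scaling, 4 were lower and 3 higher, against 17.5% and 28.3% of all genes. When all 9 libraries shared one estimate of the spread, only Tlr4 (adjusted p = 0.0146) and Ly96 (adjusted p = 0.028) of the 10 passed in edgeR, against 7.93% of all genes lower and 1.52% higher. The summed neutrophil and precursor markers were above IgE+BSA in every luteolin library (286 to 327 against 254 to 274 CPM, with 2 of 10 markers called higher). Basophil markers summed to 1610 to 1754 against 1446 to 1504 CPM, with 3 of 3 called higher. Mast cell markers summed to 70413 to 81616 against 58874 to 65722 CPM, with 6 of 10 called higher and 2 lower. Eosinophil markers summed to 21.7 to 29.1 against 25.4 to 29.0 CPM, with 1 of 3 (Siglecf) called lower and 0 higher. None of 5 measured macrophage and monocyte markers was called. The part of these markers in the differences above was not tested.

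**Figure D2:**
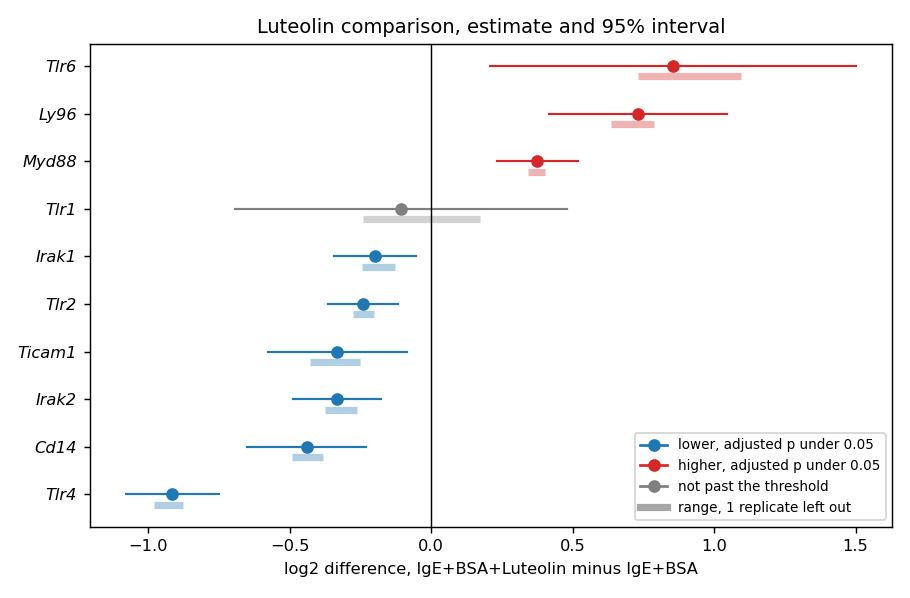
Log2 difference of each gene, IgE+BSA+Luteolin minus IgE+BSA (x axis), from edgeR with 3 libraries a group. Points and thin lines are estimates with 95% intervals, and thick pale bars give the range when 1 replicate is left out. Tlr4 is farthest to the left at −0.91, Tlr6 and Ly96 farthest to the right at 0.85 and 0.73, and the interval of Tlr1 covers 0.

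Stimulation alone was examined by comparing IgE+BSA with Control. None of the 10 genes passed the edgeR quasi-likelihood test at an adjusted p of 0.05, where 2.25% of all tested genes were called higher and 1.02% lower. At an unadjusted p under 0.05 there were 3 (Tlr2, Tlr6 and Cd14), beside 20.4% of all genes. DESeq2 called 1 (Tlr6), beside 10.6% of all genes, and the edgeR fit of all 9 libraries called 1, beside 9.56%, so each of these 2 counts is near the background. Limma called 0 with a trend or with voom. The log2 difference was 0.91 for Cd14 (95% interval 0.08 to 1.73, adjusted p = 0.207), −1.42 for Tlr6 (−2.31 to −0.53, adjusted p = 0.0995) and 0.38 for Tlr2 (0.07 to 0.69, adjusted p = 0.166). Tlr4 gave 0.21 with an interval from −0.29 to 0.71, which leaves changes of that size in either direction undetected.

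The choice of Control library set these results. Without Control replicate 1, 4 of the 10 genes were called, near the 45.0% of all genes called in either direction, with Cd14 (log2 difference 1.45, edgeR adjusted p = 1.14e-06) and Tlr2 (0.46, adjusted p = 0.000131) higher and Tlr6 (−1.72, adjusted p = 0.000832) and Irak2 (−0.40, adjusted p = 0.00127) lower in IgE+BSA. With Control replicate 1 as the lone Control library, assumed to vary like the IgE+BSA group, 4 genes were called, and Tlr4 (0.77) and Irak1 (0.36) were higher and Myd88 (−0.49) and Ticam1 (−0.44) lower, where 42.3% of all genes were called in either direction. The Cd14 difference against replicate 1 alone was 0.19 (adjusted p = 0.267). The neutrophil and precursor marker sum moved with this choice, since replicate 1 was closer to the IgE+BSA libraries than replicates 2 and 3 were, and its part in the result was not tested.

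Luteolin-treated cells were next set against Control, with the same Control libraries as above. Again none of the 10 genes was called by edgeR, against 0.285% of all tested genes higher and 2.75% lower. At an unadjusted p under 0.05 there were 4 (Tlr4, Ly96, Ticam1 and Irak2), beside 22.9% of all genes. DESeq2 called 3 (Tlr4, Ticam1 and Irak2, all lower), beside 11.9% of all genes, and the edgeR fit of all 9 libraries called 2, beside 10.8%. Limma called 0 with a trend or with voom. The log2 difference was −0.58 for Irak2 (SE 0.13, adjusted p = 0.0693), −0.52 for Ticam1 (SE 0.15, adjusted p = 0.116), −0.72 for Tlr4 (SE 0.22, adjusted p = 0.127) and 0.50 for Ly96 (SE 0.19, adjusted p = 0.177). For these 4 genes, picked by their unadjusted p, the luteolin libraries did not overlap with any Control library. The share of all genes that separate in this way was not counted.

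Without Control replicate 1, 9 of the 10 genes were called, 4 higher and 5 lower with luteolin, with Tlr1 the exception, where 60.0% of all genes were called. With replicate 1 as the lone Control library, 2 genes were called, where 21.2% of all genes were called in either direction. Those 2 were Ticam1 (−0.76, edgeR adjusted p = 0.00202) and Irak2 (−0.31, adjusted p = 0.0365), and both were also lower without replicate 1 (−0.39 and −0.70). Tlr4 differed by −0.95 without replicate 1 and by −0.13 (adjusted p = 0.485) against it alone, and Cd14 turned from 1.04 to −0.23.

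**Figure D3:**
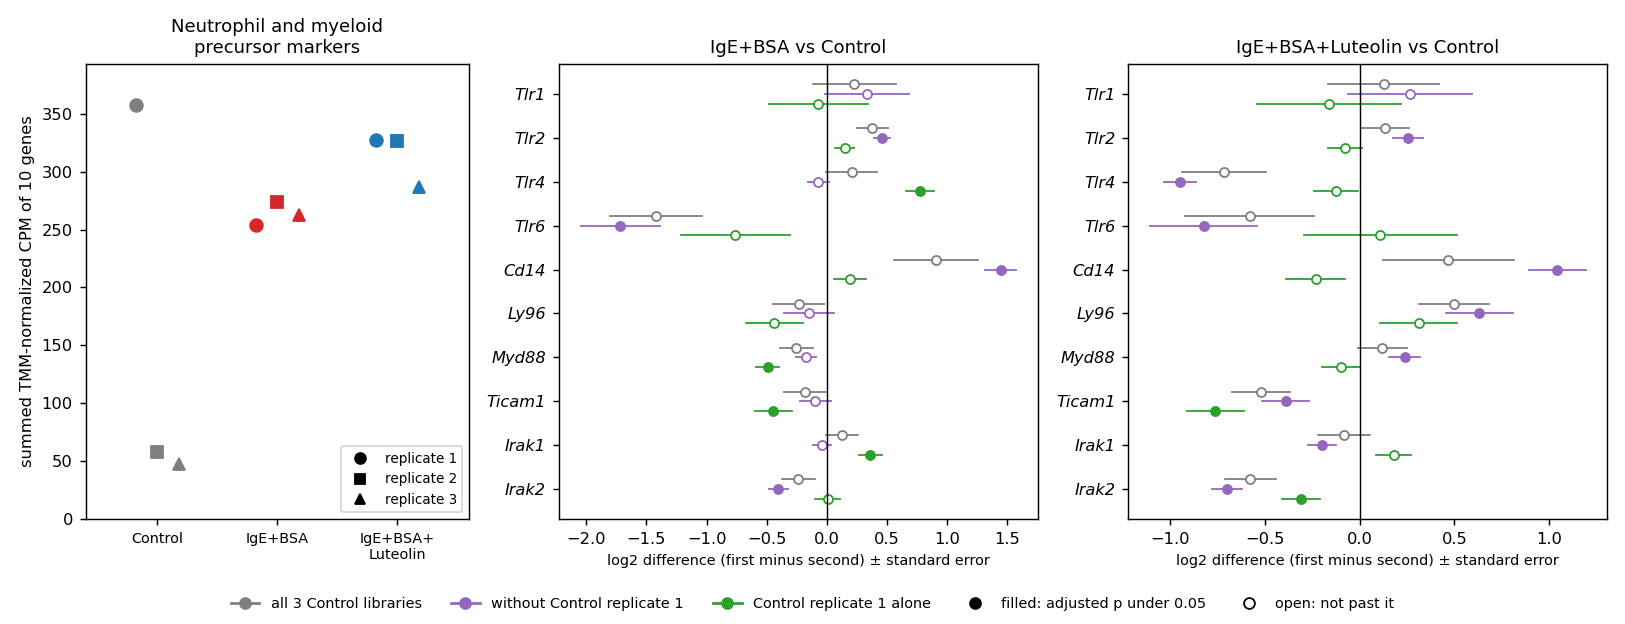
Left, summed TMM-normalized CPM of 10 neutrophil and myeloid precursor markers in each library, 357 in Control replicate 1 and 58.3 and 47.8 in replicates 2 and 3. Middle and right, log2 differences ± SE of the 10 genes from Control with all 3 Control libraries, without replicate 1, and with replicate 1 alone. Filled points passed an adjusted p of 0.05, and with all 3 Control libraries every point is open.

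Promoter sequences from RefSeq (GRCm38.p6), 250 bases before to 50 after the transcription start, were given for 7 of the 10 genes. An NF-κB consensus, searched on both strands because NF-κB is the end point of the pathway, matched in Tlr2 and Irak1 and in none of the other 5. Of the 7 genes searched, Tlr2 and Irak1, which held a match, were lower with luteolin, as were Irak2 and Ticam1, which held none. The consensus matched in 8.46% of all 32851 promoters. Matches in Tlr2 began 173 and 172 bases (overlapping each other) and 8 bases before the start, and that in Irak1 began 18 bases before it. The AP-1 motif TGANTCA (7.81% of promoters), the CRE motif TGACGTCA (1.79%) and the EGR motif GCGNGGGCG (5.55%) were not in these windows for any of the 7 genes. The sequences of Tlr2 (chr3:83841559-83841858, minus strand), Irak1 (chrX:74023872-74024171, minus strand) and Myd88 (chr9:119339969-119340268, minus strand), shown as an adaptor promoter with no match, are shown with the NF-κB matches in capitals.
Tlr2: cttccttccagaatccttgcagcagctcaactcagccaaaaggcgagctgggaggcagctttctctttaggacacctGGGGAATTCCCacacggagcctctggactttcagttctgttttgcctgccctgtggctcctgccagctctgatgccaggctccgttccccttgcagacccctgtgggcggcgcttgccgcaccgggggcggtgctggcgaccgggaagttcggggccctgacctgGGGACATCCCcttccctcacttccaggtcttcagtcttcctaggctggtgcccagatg
Irak1: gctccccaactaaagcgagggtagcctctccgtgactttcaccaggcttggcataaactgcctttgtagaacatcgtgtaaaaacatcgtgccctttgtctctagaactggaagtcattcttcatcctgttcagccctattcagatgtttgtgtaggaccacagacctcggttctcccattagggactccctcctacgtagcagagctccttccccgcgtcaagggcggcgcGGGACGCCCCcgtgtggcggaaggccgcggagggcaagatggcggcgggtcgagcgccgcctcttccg
Myd88: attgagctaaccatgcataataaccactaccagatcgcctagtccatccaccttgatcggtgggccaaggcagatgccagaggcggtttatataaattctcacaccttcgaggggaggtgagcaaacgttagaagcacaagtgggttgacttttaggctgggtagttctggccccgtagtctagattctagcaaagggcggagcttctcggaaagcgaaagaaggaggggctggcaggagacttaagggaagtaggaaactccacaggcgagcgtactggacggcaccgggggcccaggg

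The rest of the pathway was read from 68 further genes, of which 53 passed the filter on low counts. Their counts in the luteolin comparison stand beside 21.9% of all tested genes lower and 18.1% higher, and lists of this size are described without a test. Among the other Toll-like receptors, Tlr13, an endosomal sensor of bacterial ribosomal RNA, was the only one of 8 to pass the filter. It fell from 11.6 to 12.4 CPM in IgE+BSA to 7.27 to 9.28 CPM with luteolin (log2 difference −0.53, edgeR adjusted p = 0.00452). Tlr3, Tlr5, Tlr7, Tlr8, Tlr9, Tlr11 and Tlr12 had at most 35 counts summed over the 3 libraries of any group, and Tlr11 had 0 in all of them. At this depth, no change in these 7 could be measured.

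Of 5 measured chaperones and accessory proteins, 3 rose with luteolin and 0 fell. They were Hsp90b1, the endoplasmic reticulum chaperone of Toll-like receptors (log2 difference 0.25), its co-chaperone Cnpy3 (0.22) and Cd180, a TLR4 relative (0.30). Among 18 measured kinases and ubiquitin ligases downstream, 5 fell and 1 rose. Traf6, the ubiquitin ligase next after the IRAK kinases, fell by 1.21 on the log2 scale, from a mean of 33.8 to 14.6 CPM, and Peli1 and Traf3 differed by −1.24 and −0.59. Of the other TIR adaptors, Pik3ap1 was lower (−0.50) and Tirap, which bridges MyD88 to TLR2 and TLR4, was not called (0.11, edgeR adjusted p = 0.656).

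Of 11 inhibitors, 4 fell and 1 rose with luteolin, including Nfkbia (−3.48), Zc3h12a (−1.80) and Tollip (−0.85). Of the 5 other receptors that signal through MyD88, the IL-18 receptor chains Il18r1 (−1.09) and Il18rap (−0.34) fell, and Il1r1 was not called (−0.89, edgeR adjusted p = 0.157). Known target genes had the largest differences among the lists, with 9 of 11 lower and a median log2 difference of −2.11. Tnf differed by −4.18, Il6 by −2.29 and Ccl3 by −2.11. These genes also respond to signals other than Toll-like receptors. In all, 22 of the 53 genes fell and 5 rose with luteolin, and with library size alone 19 fell and 13 rose (15.3% and 33.4% of all genes). With all 9 libraries in one fit, 16 fell and 0 rose (7.93% and 1.52% of all genes). Against Control, IgE+BSA raised 10 and lowered 0 of the 53 genes, namely 6 target genes and 4 inhibitors, against 2.25% and 1.02% of all genes. Without Control replicate 1 it raised 18 and lowered 6, together a share near the 45.0% of all genes called. Of the 5207 genes called in that fit, 2591 were lower, so the directions were near even over all genes but not in the lists. In luteolin-treated cells against Control, 3 were higher and 4 lower, against 0.285% and 2.75% of all genes, and without Control replicate 1, 17 were higher and 14 lower, a share near the 60.0% of all genes called.

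**Figure D4:**
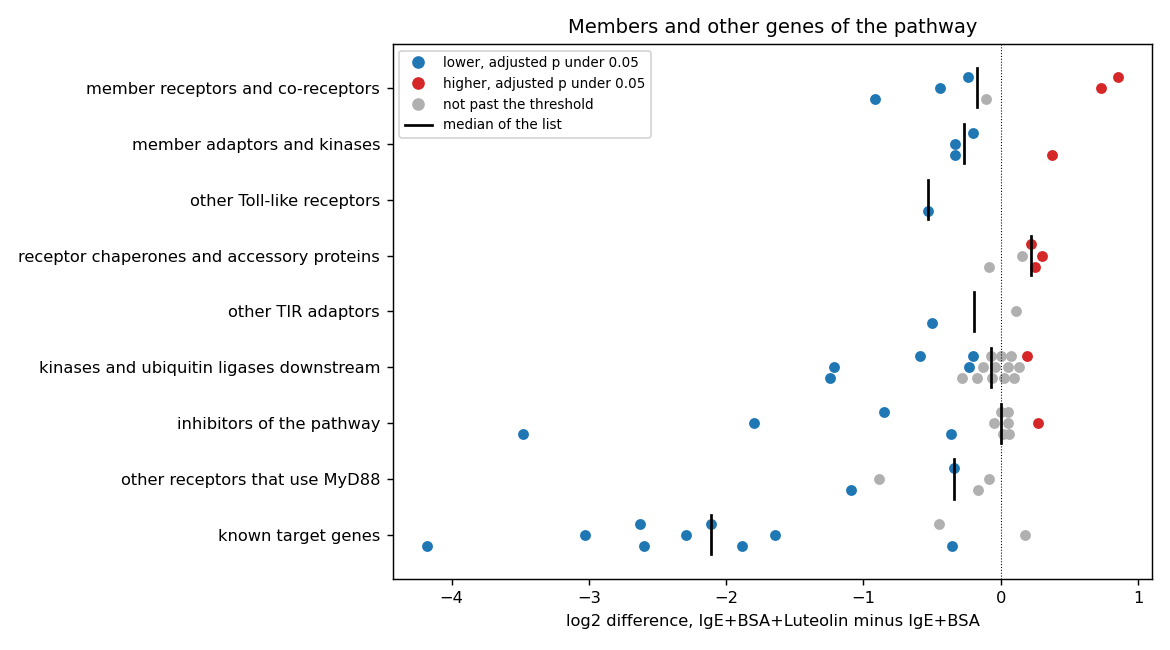
Log2 difference, IgE+BSA+Luteolin minus IgE+BSA (x axis), of the 10 genes in 2 groups and of 53 other pathway genes in 7 lists. Each point is a gene coloured by its edgeR call, and black bars are list medians. Target genes lie farthest to the left with a median of −2.11, whereas receptors and co-receptors spread on both sides of 0.

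The genes most like each member over the 9 libraries were ranked by the root mean square difference of log2 CPM, centred and scaled per gene, which is 0 for identical profiles. Tlr4 was closest to Kpna4 (0.111), Dusp16 (0.111) and Zbtb10 (0.134). Cd14 was closest to Spp1 (0.111), Clec4d (0.135) and the chemokine gene Cxcl3 (0.153), and Spp1 was also among the closest to Tlr2 (0.194), after Fdx1 (0.162) and Got1 (0.193). Irak2 was closest to Birc2 (0.154), Amn1 (0.181) and Neurl3 (0.192), and Myd88 to Arl6ip5 (0.168), Sash3 (0.170) and Pias4 (0.191). The match was poorest for Tlr1, whose nearest gene stood at 0.426. For Tlr6, Ly96, Ticam1 and Irak1 the nearest gene stood at 0.205 to 0.216. These values share the spread of the Control libraries and are a description of 9 samples.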

How the data were processed

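The 10 genes and all gene lists were chosen with earlier results of these data known. The deposited values were raw read counts per Ensembl gene. The authors prepared stranded libraries, filtered reads with HTStream and aligned them with STAR 2.7.0f to mm10, per the submitters' processing notes. The column names refer to HTSeq, and its strand and multi-mapping settings are not given in the sources used here. Of 47643 genes, 24256 had 0 counts in every library. Genes with a median CPM above 1 over the 9 libraries (11560, including the 10 members) were tested in R 4.3.3 with edgeR 4.0.16 (TMM, quasi-likelihood F test, two-sided, Benjamini-Hochberg adjustment over all tested genes, threshold 0.05), each pair of groups fitted on its own 6 libraries. Intervals are 95%. Positions and exon lengths came from GENCODE M21 (GRCm38). Named besides the members were up to 3 genes per pathway list with the lowest adjusted p for luteolin, every other Toll-like receptor, and the 3 nearest genes by profile (log2 CPM with a prior count of 2). Marker genes named in the library check were picked after their values were seen. Alternatives were DESeq2 1.42.0, limma 3.58.1 with a trend or voom, RLE, upper-quartile or library-size scaling, other filters on low counts, all 9 libraries in one fit, a replicate block and leaving out each replicate. Control replicate 1 as the lone Control library was added after seeing the data. The fitting code was tested on simulated data. Replicate libraries of a group differed beyond counting noise, with chi-square per degree of freedom of 88.1 and 146 between Control replicate 1 and the other 2, and of 4.05 to 15.2 for the remaining pairs. Comparisons that share a group are not independent.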

Additional observations from a re-analysis of the deposited data

How the results depend on the processing

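Calls against Control depended most on Control replicate 1. For IgE+BSA against Control, the count of members called was 0. It was 1 with DESeq2 (10.6% of all genes) and 1 with all 9 libraries in one fit (9.56%). With 1 replicate left out it was 0 to 4, and the pathway count of 10 became 8 to 24. Both were highest without Control replicate 1, where 45.0% of all genes were called. For IgE+BSA+Luteolin against Control, the member count of 0 became 3 with DESeq2 (11.9%) and 2 with all 9 libraries (10.8%). With 1 replicate left out it was 0 to 9, and the pathway count of 7 became 1 to 31. Both were again highest without Control replicate 1, where 60.0% of all genes were called. For luteolin against IgE+BSA, all 9 libraries in one fit took members called from 9 to 2 and pathway genes from 27 to 16. That fit, whose spread includes the Control libraries, called 7.93% of all genes lower and 1.52% higher. With 1 replicate left out the count was 6 to 8 for members and 23 to 28 for pathway genes. Calls over all genes then ran from 3242 to 5082 of 11560.

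None of the log2 differences that changed sign was called. With Control replicate 1 as the lone Control, Tlr1 was −0.069 and Irak2 0.0063 for IgE+BSA against Control, and for luteolin against Control Tlr1 was −0.16, Tlr2 −0.077, Tlr6 0.11, Cd14 −0.23, Myd88 −0.10 and Irak1 0.18. With library size alone, Irak1 was −0.057 for IgE+BSA against Control and Tlr1 0.0059 for luteolin against IgE+BSA. With 1 replicate left out, the ranges that crossed 0 were −0.043 to 0.37 for Tlr1, −0.070 to 0.35 for Tlr4 and −0.038 to 0.20 for Irak1 in IgE+BSA against Control, −0.24 to 0.17 for Tlr1 in luteolin against IgE+BSA, and −0.067 to 0.26 for Tlr1 and −0.20 to 0.0061 for Irak1 in luteolin against Control. The cause of these changes was not tested. Of the other alternative values for members, 435 kept direction and side of the threshold, 26 gained a call and 23 lost one.

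Whether replicate numbers pair the libraries was not settled. Correlations of same-numbered deviations were −0.02, 0.17 and 0.28 for luteolin against IgE+BSA, and those of different numbers ran from −0.28 to 0.15. In the Control comparisons the same-numbered correlations lay between −0.26 and 0.31. With a replicate block, 0, 9 and 0 members were called for IgE+BSA against Control, luteolin against IgE+BSA and luteolin against Control, and 9, 30 and 8 pathway genes. Over all genes the block gave 144, 5582 and 212 calls against 378, 4624 and 351. Low counts limit Tlr1 and Tlr6, and 3 libraries a group limit every interval.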
